A study of Mus musculus with 6 samples.

Results

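The mRNAs made from the mitochondrial genome were followed in Ba/F3 cells that express a WT or an R98S mutant form of the ribosomal protein RPL10. The 10 genes described were mt-Nd1, mt-Nd2, mt-Nd4, mt-Nd5, mt-Nd6, mt-Cytb, mt-Co1, mt-Co2, mt-Co3 and mt-Atp6, picked by gene symbol among the 41255 rows of the expression table. They were chosen from earlier results of these same libraries, in which several of them differed between WT and R98S. Their levels and differences are therefore given as a description without p-values, and the count of them called by the test across all genes is not evidence of a difference. Of the 10 genes, 8 passed the filter on low values (a mean normalized count of at least 10) that 11550 rows of the table passed, and mt-Co2 and mt-Co3 did not.

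Ba/F3 is a mouse lymphoid line that grows only with interleukin-3. All 6 cultures carried a human RPL10 cDNA delivered by retrovirus and a short hairpin RNA against the mouse Rpl10 gene, and each was grown from a single cell, so that every library stands for 1 clone. WT clones 28, 29 and 36 received unmutated RPL10, and R98S clones 11, 13 and 35 received its R98S form, an arginine-to-serine change known from T-cell acute lymphoblastic leukemia. Polyadenylated RNA was sequenced after 5 min in 100 µg/ml cycloheximide, an inhibitor of cytosolic ribosomes.

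The mitochondrial genome is a small circle that is transcribed from both strands as long precursors. Transfer RNAs lie between most of the coding genes, and their removal releases the mRNAs, which then receive a short poly(A) tail. Every protein encoded there is a hydrophobic core subunit of a respiratory complex or of ATP synthase, and each of these complexes also needs subunits imported from the cytosol. Mitochondrial mRNAs are among the abundant transcripts of most cell types.

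The 6 libraries held between 21786776 and 24204991 reads assigned to genes. Values of single libraries are given throughout in the order of clones 28, 29 and 36 for WT and of clones 11, 13 and 35 for R98S. Rpl10, the gene targeted by the hairpin, had normalized counts of 2853, 3156 and 1900 in WT against 3028, 1883 and 2617 in R98S. The groups overlapped (log2 difference R98S minus WT −0.07, SE 0.23, limma adjusted p = 0.871), and since all clones carry the hairpin this row does not check the labels. Of 14 markers of a lymphoid, interleukin-3 dependent line, 6 passed the filter, namely Ptprc, Il3ra, Csf2rb, Csf2rb2, Cd79a and Cd79b, whereas the B cell precursor genes Ebf1, Pax5, Vpreb1, Vpreb2, Igll1, Rag1 and Rag2 stayed at a mean normalized count of at most 6.33. Their summed level was 99411 to 119396 normalized counts in WT and 135978 to 160656 in R98S, carried by Csf2rb and Csf2rb2, beta subunits of the interleukin-3 receptor. Of the 6 tested, 3 were called higher (Csf2rb2, Csf2rb and Cd79b) and 1 lower, Ptprc, which encodes CD45 and had 11217 ± 2636 normalized counts in WT and 4471 ± 1148 in R98S (SD, n = 3 each, log2 difference −1.33, limma adjusted p = 0.00894). The 7 myeloid markers summed to 428 to 1005 in WT and 52.7 to 169 in R98S, and 2 of the 3 tested, Prtn3 and Lyz2, were called lower. The part of these shifts in the mitochondrial values was not tested. Summed levels overlapped between WT and R98S for 7 T cell markers (16.1 to 68.1 and 48.0 to 93.8, with 1 of 1 tested, Cd3d, higher), 7 erythroid markers (412 to 911 and 576 to 798, with 1 of 3, Hba-a1, lower) and 8 stromal and epithelial markers (10.2 to 27.9 and 13.9 to 21.6, with none tested), and Vpreb2, Hbb-bt and Dcn were at 0 in every library.

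The genes lie on chrM of GRCm38 in an order that the sequences below help to follow. Shown is the last stretch of 6 of the genes as annotated, 5′ to 3′ on the coding strand and taken from the GENCODE transcripts, because it shows which genes leave their stop codon to the poly(A) tail and which overlap a neighbour. The mRNA itself can end before or after the annotated gene. The letters of the stop codon that the gene itself encodes are in capitals.
mt-Nd1, chrM:3684-3707, plus strand: gcgggagtaccaccatacataTAG
mt-Co1, chrM:6849-6872, plus strand: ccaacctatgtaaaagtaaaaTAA
mt-Nd4, chrM:11521-11544, plus strand: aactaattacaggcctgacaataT
mt-Nd5, chrM:13542-13565, plus strand: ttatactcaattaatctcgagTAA
mt-Nd6, chrM:13552-13575, minus strand: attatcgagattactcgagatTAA
mt-Cytb, chrM:15265-15288, plus strand: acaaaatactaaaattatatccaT
The mRNAs of mt-Nd4 and mt-Cytb, and also that of mt-Co3, end in a lone T, and the poly(A) tail completes their stop codon. The ends of mt-Nd5 and mt-Nd6 overlap by 14 bases on opposite strands. mt-Atp6 shares 43 bases with mt-Atp8 and 1 base with mt-Co3, and mt-Nd4 shares 7 bases with mt-Nd4l. Some ends also overlap a transfer RNA gene. mt-Nd1 shares its last 2 bases, part of its stop codon, with mt-Ti on the same strand. mt-Nd2 shares 2 bases with mt-Tw on the same strand, and mt-Co1 shares 3 with mt-Ts1 on the opposite strand. The libraries were strand-specific, but whether the counting used the strand is not given in the sources used here, so reads of such overlaps, and antisense reads over mt-Nd6, cannot be told apart from the genes' own.

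A second set of sequences marks where 2 of the genes stop matching their nuclear copies. On chromosome 1 (GRCm38, chr1:24611535-24616197, minus strand) the annotation holds 7 pseudogenes in a row over 4663 bases, which copy the mitochondrial genome from mt-Co1 to mt-Nd4. In such windows the copy of mt-Nd4, Gm28439, matched bases 1 to 876 of the gene. The copy of mt-Co1, Gm29216, matched from base 1067 to the end at base 1545. The edge in mt-Nd4 is where the annotated copy ends, and sequence past it was not compared. Gm29216 is 492 bases long and reaches past the matched stretch of mt-Co1, so letters in capitals there can match it too. In each 30-base stretch the letters inside the matched windows are in lower case and the others in capitals.
mt-Nd4, chrM:11028-11057, plus strand: tactcctcagttagcCACATAGCACTTGTT
mt-Co1, chrM:6379-6408, plus strand: GTGGTCTAACCGGAAttgttttatccaact
In mt-Nd4 the matching bases come first and in mt-Co1 last. Of the coding genes that lie whole between these edges, mt-Co2, mt-Atp6, mt-Co3, mt-Nd3 and mt-Nd4l had almost no reads, whereas mt-Atp8 had many. The last 43 bases of mt-Atp8 overlap mt-Atp6 and lie in the stretch that the pseudogene Gm10925 copies. The rest of mt-Atp8 falls between annotated pseudogenes, where the sequence of chromosome 1 was not compared, so a copy of it there is not excluded.

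Of the genes for complex I, the NADH dehydrogenase that feeds electrons into the respiratory chain, mt-Nd2 (chrM:3914-4951) had the largest log2 difference. Its normalized counts were 18217, 22859 and 20836 in WT against 68310, 24638 and 52608 in R98S (order of clones as above). All R98S clones were above all WT clones, clone 13 by little. The log2 difference, R98S minus WT, was 1.12 (SE 0.33, n = 3 against 3), and here as below it is on the scale of log2(normalized count + 1).

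mt-Nd4 (chrM:10167-11544), a proton-pumping subunit of the membrane arm of complex I, had 14115, 15291 and 15586 normalized counts in WT. The mutants had 39459, 19379 and 35818. Again the groups did not overlap and clone 13 was the lowest of the mutants, at a log2 difference of 1.01 (SE 0.25). WT clones agreed closely, with an SD of 778 around a mean of 14997.

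mt-Nd5 (chrM:11742-13565), the largest of these subunits, had 25706, 28964 and 23604 normalized counts in WT. Its values in R98S were 63856, 28012 and 61476. Clone 13 fell within the WT range, so the groups overlapped in spite of a log2 difference of 0.88 (SE 0.30).

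mt-Nd6 (chrM:13552-14070), the one coding gene on the minus strand, was measured at 10686, 11863 and 9903 normalized counts in WT against 21492, 10679 and 20961 in R98S. Clone 13 lay inside the WT range, and the log2 difference was 0.65 (SE 0.25). mt-Nd1 (chrM:2751-3707), whose protein sits where the arms of complex I meet, had 55792, 63710 and 64696 in WT against 102703, 60363 and 91285 in R98S. Here too clone 13 overlapped with WT, and the log2 difference was 0.43 (SE 0.21).

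mt-Cytb (chrM:14145-15288) encodes cytochrome b, the mitochondrial subunit of complex III. Its normalized counts were 56905, 60688 and 68558 in WT against 122473, 85422 and 104382 in R98S. The groups did not overlap, and clone 13 stood farther from WT than for any of the complex I genes, at 1.38 times the WT mean. The log2 difference was 0.74 (SE 0.17).

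mt-Co1 (chrM:5328-6872), the catalytic subunit of complex IV (cytochrome c oxidase), was not higher in R98S on average. Counts were 139196, 159004 and 143165 in WT against 152156, 125234 and 115912 in R98S. Clone 11 lay within the WT range while clones 13 and 35 were below every WT clone, and the log2 difference was −0.17 (SE 0.16).

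**Figure D1:**
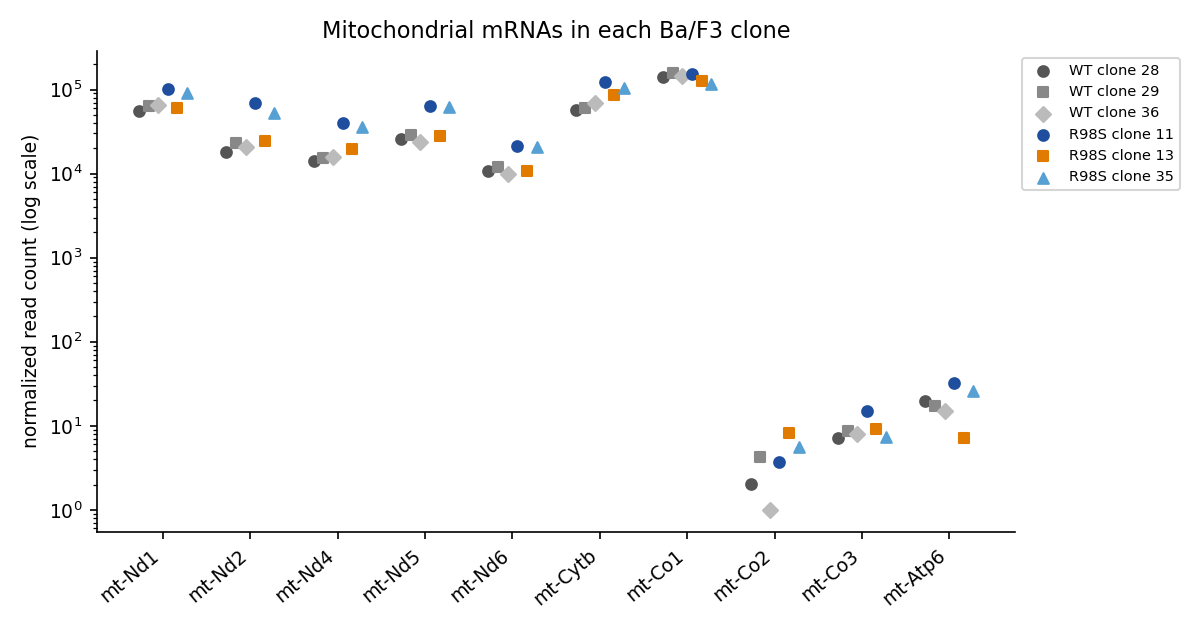
Normalized read count on a log scale for each of the 10 mitochondrial mRNAs, 1 point per clone (grey, WT; blue and orange, R98S). Of the 7 genes with more than 1000 reads in every library, mt-Nd2, mt-Nd4 and mt-Cytb have all R98S points above all WT points, R98S clone 13 (orange) lies nearest to WT in most genes, and mt-Co2, mt-Co3 and mt-Atp6 lie at about 1 to 32.

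The other complex IV genes and mt-Atp6 had at most 34 reads in any library. mt-Co2 (chrM:7013-7696), which carries the copper site that takes electrons from cytochrome c, had 2, 4 and 1 reads in WT against 4, 8 and 6 in R98S. mt-Co3 (chrM:8607-9390) had 7, 8 and 8 reads in WT and 16, 9 and 8 in R98S. With so few reads no difference could be detected for either gene.

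mt-Atp6 (chrM:7927-8607), part of the proton channel of ATP synthase, had 19.5, 17.2 and 15.01 normalized counts in WT against 31.9, 7.14 and 25.9 in R98S. Clone 13 was below and the other R98S clones above all of WT. Its log2 difference of 0.09 (SE 0.54) changed sign with the clones, to −0.29 without R98S clone 11 and 0.72 without R98S clone 13.

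By the test run on all 11550 genes, 4 of the 8 tested mRNAs were called higher in R98S (mt-Nd2, mt-Nd4, mt-Nd5 and mt-Cytb, limma, Benjamini-Hochberg adjusted p under 0.1) and 0 were called lower. Of all genes tested 23.9% were called, 10.7% higher and 13.1% lower in R98S. Groups without overlap, higher in R98S, were found for 3 of the 8 (mt-Nd2, mt-Nd4 and mt-Cytb), against 18.1% of all genes. Since the same contrast served to pick the genes, nothing is read from these counts. The median log2 difference was 0.69 over the 8 and −0.01 over all genes tested. The count of 4 rested on the clones included: it was 1 when WT clone 28 or R98S clone 11 was left out, 2 when this was WT clone 29, WT clone 36 or R98S clone 35, and 6 in the absence of R98S clone 13. It was 2 without the intensity trend, 5 with edgeR and 6 with DESeq2.

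R98S clones 11 and 35 differed from WT in a like manner and clone 13 did not follow them. Among the 7 mRNAs with more than 1000 reads in every library, 6 were above every WT clone in R98S clone 11 and in R98S clone 35, but 3 in R98S clone 13. Relative to the WT mean, clone 11 ranged from 1.03 times (mt-Co1) to 3.31 times (mt-Nd2) and clone 35 from 0.788 times (mt-Co1) to 2.55 times (mt-Nd2). Clone 13 ranged from 0.851 times (mt-Co1) to 1.38 times (mt-Cytb), with 1.19 times for mt-Nd2, 1.29 times for mt-Nd4, 1.07 times for mt-Nd5, 0.987 times for mt-Nd6 and 0.983 times for mt-Nd1. The order of the complex I genes was shared by clones 11 and 35, with mt-Nd2 first, then mt-Nd4, mt-Nd5, mt-Nd6 and mt-Nd1.

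**Figure D2:**
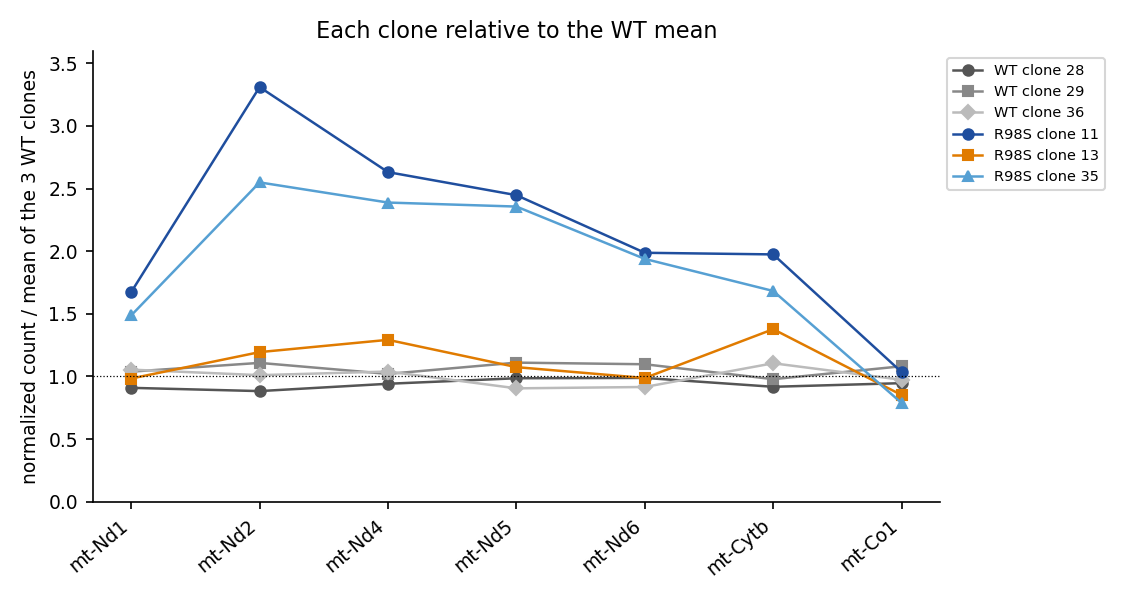
Normalized count of each clone divided by the mean of the 3 WT clones, for the 7 mRNAs with more than 1000 reads in every library, with a line joining the values of 1 clone and a dotted line at 1. R98S clones 11 and 35 rise to 3.31 and 2.55 at mt-Nd2 and return to 1.03 and 0.788 at mt-Co1, while R98S clone 13 stays between 0.851 and 1.38.

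The 10 mRNAs together took 1.40%, 1.55% and 1.54% of the reads of the WT libraries against 2.51%, 1.55% and 2.17% in R98S. The mean share was 1.497% ± 0.0844 in WT and 2.08% ± 0.487 in R98S (SD, n = 3 each), and R98S clone 13 was level with WT clone 29. Counting error was small beside this spread, with a 95% exact binomial (Clopper-Pearson) interval from 1.547% to 1.557% for R98S clone 13. In such bulk libraries fewer cells that hold an RNA and less of it per cell cannot be told apart.

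The composition of this pool differed too. mt-Co1 supplied 43.4%, 43.9% and 41.3% of the reads of the 10 mRNAs in WT. The mutants had 26.7%, 35.4% and 24.02%, all below WT, and clone 13 stood between the groups. The means were 42.9% ± 1.35 and 28.7% ± 5.95 (SD, n = 3 each).

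**Figure D3:**
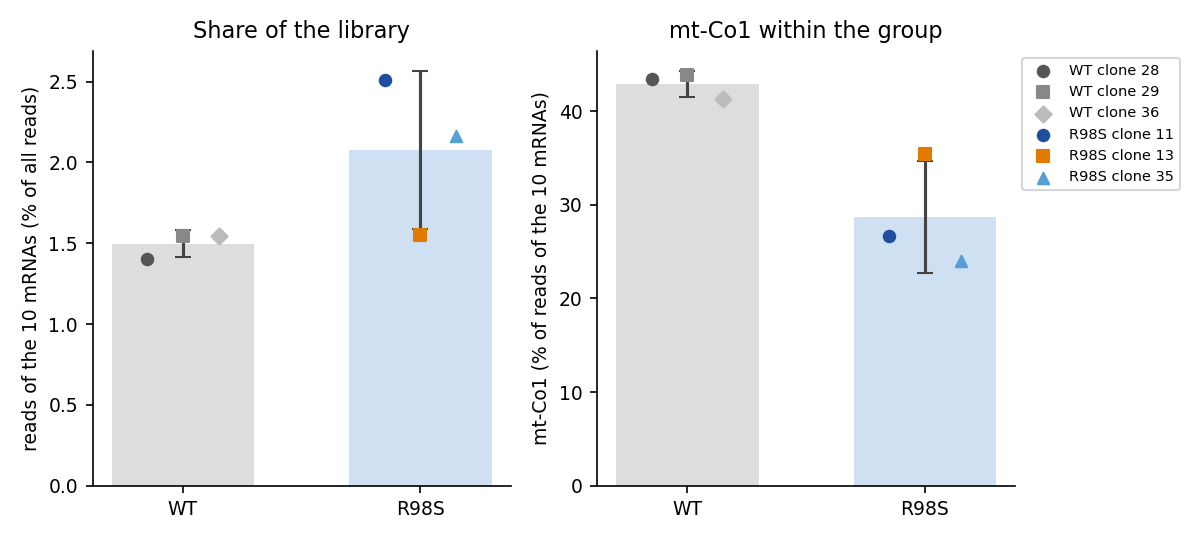
Left, share of all reads taken by the 10 mRNAs (%); right, share of mt-Co1 among the reads of these mRNAs (%). Bars are group means, error bars 1 SD over 3 clones and points single clones; R98S clone 13 (orange) sits at the level of WT on the left (1.55%) and between the groups on the right (35.4%).

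Ratios between the mRNAs do not depend on library scaling. The ratio of mt-Co1 to mt-Nd1 was 2.21 to 2.496 in WT and 1.27 to 2.08 in R98S, with clone 13 at the upper end. For mt-Nd2 over mt-Nd1 it was 0.322 to 0.359 in WT and 0.408 to 0.665 in R98S, clone 13 being the lowest mutant. The ratio of mt-Cytb to mt-Nd1 was 0.953 to 1.06 in WT and 1.14 to 1.42 in R98S, and there clone 13 was the mutant farthest from WT. For mt-Cytb over mt-Nd5 clone 13 was at 3.05, above the WT range of 2.10 to 2.91, while R98S clones 11 and 35 were at 1.92 and 1.70 and below it. For mt-Nd6 over mt-Nd5, which are read from opposite strands, the ratio was 0.410 to 0.420 in WT and 0.337 to 0.381 in R98S. Every R98S clone was below every WT clone. Within the plus strand mt-Nd4 over mt-Nd5 overlapped between the groups, at 0.528 to 0.660 in WT and 0.583 to 0.692 in R98S.

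Between genes, levels were compared per kilobase of gene. mt-Co1 ranked first in all WT clones and in R98S clone 13, with a WT mean of 95224 ± 6783 normalized counts per kilobase (SD, n = 3). mt-Nd1 followed in WT at 64158 ± 5101 and then mt-Cytb at 54240 ± 5197. In R98S clones 11 and 35 mt-Nd1 ranked above mt-Cytb and mt-Cytb above mt-Co1, and in R98S clone 13 the order was mt-Co1, mt-Cytb and mt-Nd1. Ranks 4 and 5 were held by mt-Nd6 and mt-Nd2 in an order that varied between clones, and in WT their means of 20842 ± 1901 and 19882 ± 2242 did not differ beyond the spread. In every library mt-Nd5 had rank 6 and mt-Nd4 rank 7 on this scale. The last places went to mt-Atp6, mt-Co3 and mt-Co2, with WT means of 25.3, 10.1 and 3.58 per kilobase.

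Of the 10 genes, those with almost no reads shared nearly all of their sequence with annotated nuclear transcripts. The authors kept alignments with a mapping quality of at least 10, a filter that removes reads fitting 2 places equally well. Of all 50-base windows of mt-Co2, 100% also occurred in an annotated nuclear transcript, and the same held for 99.9% of mt-Co3 and 99.5% of mt-Atp6. No window of mt-Nd1, mt-Nd6 or mt-Cytb was shared, 8.19% were for mt-Nd2 and 7.61% for mt-Nd5. mt-Co1 with 51.1% and mt-Nd4 with 62.2% stood in between, since their annotated copies match them only in part. Per 1000 windows found in no such transcript, mt-Co1 had a mean of 190302 and mt-Nd4 of 46364 normalized counts over the 6 libraries, against 90040 and 16890 per kilobase of the whole gene. The order of genes turns with the scale. Per 1000 unshared windows mt-Co1 was above mt-Nd1 and mt-Cytb also in R98S clone 11 (208147 against 113109 and 111847) and clone 35 (158566 against 100534 and 95326). On that scale mt-Nd4, with a WT mean of 29875, was above mt-Nd6 (23015), mt-Nd2 (22728) and mt-Nd5 (15909). Which of these scales applies depends on how reads from shared windows were treated. Whether the filter accounts for the low rows was not tested, as the reads were not used here.

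Of the 7 pseudogenes on chromosome 1, 1 is listed in the table, Gm10222 (a copy of mt-Nd4l), at 0 to 9.38 normalized counts. Gm13340, a copy of mt-Co1 on chromosome 2 (chr2:22588103-22589647, minus strand), had 71.2 to 102 normalized counts, far under mt-Co1 itself. It is as long as mt-Co1, at 1545 bases, but shares only 27.5% of the 50-base windows of that gene.

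**Figure D4:**
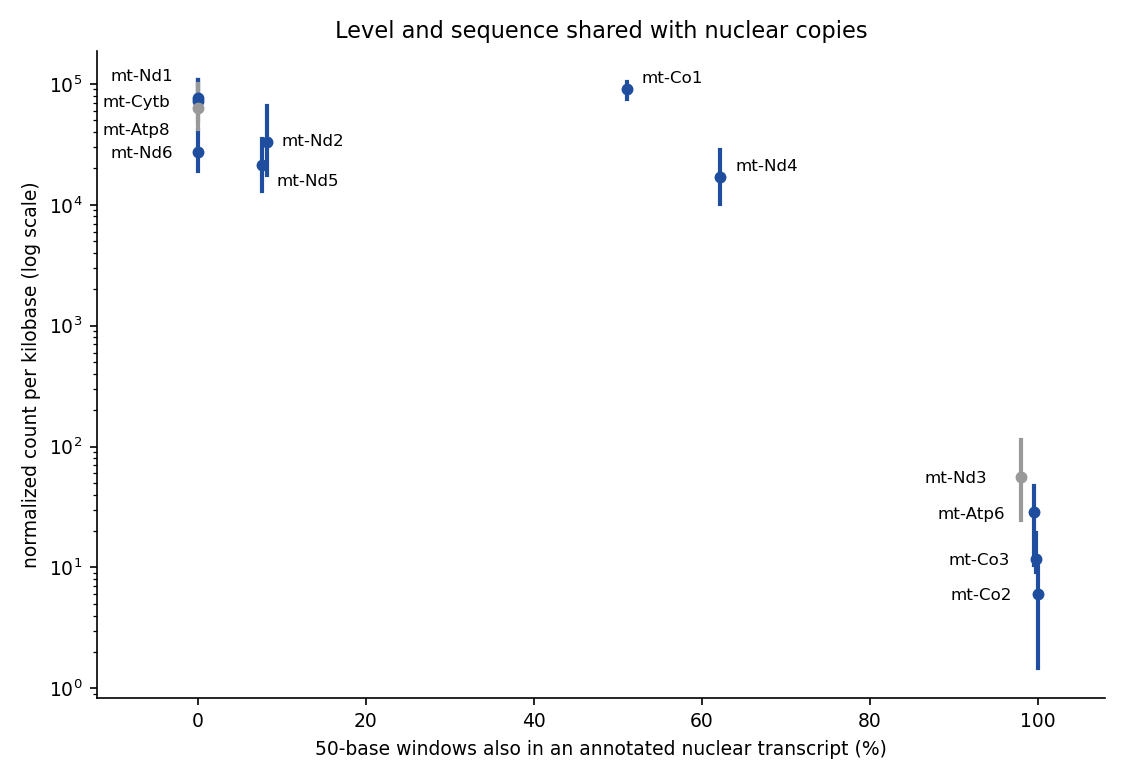
Normalized count per kilobase (log scale; points, mean of 6 libraries; lines, lowest to highest library) against the percentage of 50-base windows of the gene that also occur in an annotated nuclear transcript. Blue, the 10 mRNAs; grey, mt-Atp8 and mt-Nd3; mt-Nd4l, at 0 in all libraries, cannot be drawn. Genes with 62.2% or less of shared windows have means of at least 16890 and the 4 with almost full sharing of at most 56.5. Nuclear sequence between annotated transcripts was not compared, which bears on the value of mt-Atp8.

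Outside the 10 genes, 3 further coding rows of the mitochondrial genome were measured in the same libraries. mt-Atp8 (chrM:7766-7969), a small subunit of ATP synthase that shares no window with an annotated nuclear transcript, was higher in R98S. It had 8690, 9956 and 8982 normalized counts in WT against 20374, 14038 and 14941 in R98S. The groups did not overlap, with a log2 difference of 0.82 (SE 0.15, limma adjusted p = 0.0133, 9.53e-06 to 0.0570 over the alternatives). Leaving out any 1 clone gave a difference of 0.66 to 0.92. The gene sits between mt-Co2 and mt-Atp6 and was read from the same libraries as the 10 mRNAs, so it adds no separate set of clones.

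mt-Nd3, which shares 97.99% of its windows, had 16.4, 8.60 and 18.0 normalized counts in WT and 39.4, 13.3 and 22.2 in R98S and did not pass the test (log2 difference 0.69, SE 0.49, limma adjusted p = 0.364). mt-Nd4l had 0 reads in every library, which allows up to 3.22 normalized counts, and 98.8% of its windows are shared. The ribosomal RNAs mt-Rnr1 and mt-Rnr2 had at most 2 and 5 reads, and the authors removed reads matching ribosomal and transfer RNA before alignment. Of the 22 transfer RNA rows 18 had no read in any library. The 4 with reads all lie on the minus strand, opposite to most of the mRNAs, and the 3 tested did not pass: mt-Tc had a log2 difference of −0.45 (limma adjusted p = 0.370), mt-Tp of −0.03 (adjusted p = 0.915) and mt-Te of 0.71 (adjusted p = 0.475). Leaving out R98S clone 13 brought mt-Te to 1.495 (adjusted p = 0.0258).

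Nuclear genes that copy and transcribe mitochondrial DNA were called higher in 5 of 21 cases (23.8%) and lower in 0. Their median log2 difference was 0.30 (over all genes −0.01). For this and the lists below, the shares over all genes tested were 10.7% called higher and 13.1% called lower. Peo1, the Twinkle helicase of the replication fork, rose by 0.64 on the log2 scale (limma adjusted p = 0.0242), from 1333 ± 219 normalized counts to 2062 ± 156 (SD, n = 3 each). Mgme1, an exonuclease of mitochondrial DNA, rose by 0.49 (adjusted p = 0.0431), the topoisomerase Top1mt by 0.65 (adjusted p = 0.0513) and the ligase Lig3, which also acts in the nucleus, by 0.38 (adjusted p = 0.0533). The polymerase Polrmt itself had a difference of 0.19 (adjusted p = 0.364), the packaging and transcription factor Tfam of −0.05 (adjusted p = 0.780) and the promoter-opening factor Tfb2m of 0.31 (adjusted p = 0.226), and none of the 3 passed. The count of 5 was 1 when WT clone 28 was left out, 2 when it was WT clone 29 or R98S clone 11 and 3 when it was R98S clone 35. Calls were lost for Mgme1 without WT clone 28, WT clone 29 or R98S clone 35 (adjusted p up to 0.156), for Top1mt without WT clone 28 or R98S clone 11 (up to 0.163) and for Lig3 without any 1 clone other than R98S clone 13 (up to 0.126) and without the filter on low values (0.104).

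Among factors that process, modify or stabilize mitochondrial RNA, 9 of 34 were higher and 1 was lower, with a median of 0.15. Fastkd2, an RNA-binding protein of the mitochondrial RNA granule, had 801, 807 and 816 normalized counts in WT against 2216, 1367 and 1433 in R98S. Its log2 difference was 1.01 (SE 0.18, adjusted p = 0.0126), and all R98S clones were above all WT clones. Rnmtl1 and Nsun4, methyltransferases of the mitochondrial ribosomal RNA, rose by 0.76 (adjusted p = 0.0218) and 0.62 (adjusted p = 0.0327), and Fastkd5, needed to mature mRNAs that lack a flanking transfer RNA, by 0.76 (adjusted p = 0.0220). The Nsun4 call was lost without WT clone 28 (adjusted p = 0.116).

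Hsd17b10, a dehydrogenase that is also a subunit of the mitochondrial RNase P, fell by 0.73 (adjusted p = 0.0742). This call was lost without any 1 of WT clones 28, 29 and 36 or R98S clones 11 and 35 (adjusted p up to 0.216), and also with edgeR (adjusted p = 0.108) and without the intensity trend (adjusted p = 0.130). Lrpprc and Slirp, which together hold mRNAs stable, did not pass, at 0.14 (adjusted p = 0.619) and 0.15 (adjusted p = 0.581). Lrpprc had 4698 and 4069 normalized counts in R98S clones 11 and 35 and 2806 in clone 13, against 3389 to 3437 in WT, so that clone 13 was again apart from the other mutants, and without clone 13 the difference was 0.36 (adjusted p = 0.0554). The count of 10 called was 3 when WT clone 28 was left out, 4 for WT clone 29, 5 for R98S clone 11 or 35 and 6 for WT clone 36.

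Of 15 tested factors of mitochondrial translation and membrane insertion, 3 were higher and 0 lower, with a median of 0.19. Mtrf1, a release factor, rose by 0.81 (adjusted p = 0.0116), Taco1, which promotes translation of the mt-Co1 mRNA, by 0.75 (adjusted p = 0.0136) and the elongation factor Tufm by 0.61 (adjusted p = 0.0127). Taco1 had 260, 248 and 238 normalized counts in WT against 449, 406 and 399.7 in R98S. In these genes clone 13 stood with the other R98S clones and clear of WT. The count was 5 without R98S clone 13.

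Mitochondrial ribosomal proteins were higher for 14 and lower for 2 of 76 genes, with a median of 0.21. Mrpl37 rose by 0.74 (adjusted p = 0.0153), Mrpl50 by 0.69 (adjusted p = 0.0131), Mrpl47 by 0.66 (adjusted p = 0.0162) and Mrps11 by 0.61 (adjusted p = 0.0155), whereas Mrps6 fell by 0.52 (adjusted p = 0.0481) and Mrpl32 by 0.44 (adjusted p = 0.0475). The count of 16 called was 8 with WT clone 28 left out and 9 with WT clone 29 left out. Both decreases lost their call in these fits and without R98S clone 35, and that of Mrpl32 also without WT clone 36 (adjusted p up to 0.164 for Mrps6 and 0.149 for Mrpl32).

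Nuclear subunits of the complexes to which the 10 mRNAs contribute were called in 12 of 70 cases, 11 higher (15.7%) and 1 lower. Over all genes tested 23.9% were called, 10.7% higher and 13.1% lower. For complex I 7 of 36 were higher and 1 was lower, with a median of 0.08. Ndufb6 rose by 0.64 (adjusted p = 0.0167), Ndufs5 by 0.62 (adjusted p = 0.0216), Ndufb10 by 0.57 (adjusted p = 0.0323) and Ndufab1, also the mitochondrial acyl carrier protein, by 0.52 (adjusted p = 0.0183), and Ndufa6 fell by 0.42 (adjusted p = 0.0254). The count of 8 was 4 without WT clone 28 or 29 and 5 without R98S clone 11. The Ndufb10 call was lost without WT clone 29 (adjusted p = 0.110) and that of Ndufa6 without WT clone 28 (adjusted p = 0.1003).

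For complex III 2 of 9 were higher and 0 lower, with a median of 0.21. Uqcrh, the hinge protein, had 5103, 5179 and 5118 normalized counts in WT against 7941, 7444 and 7685 in R98S (log2 difference 0.58, SE 0.09, limma adjusted p = 0.00680). The 3 R98S clones lay close together and above WT. Uqcrc2, a core protein, rose by 0.44 (adjusted p = 0.0350), a call lost without R98S clone 11 (adjusted p = 0.110). The count was 3 without WT clone 36 or R98S clone 13, 1 without R98S clone 11 and 4 with DESeq2.

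For complex IV 0 of 10 nuclear subunits were called by limma, with a median of 0.04. At an unadjusted p under 0.05 there was 1, and edgeR and DESeq2 called 0. When R98S clone 35 was left out, limma called 1. For ATP synthase 2 of 15 were higher (13.3%, against 10.7% of all genes) and 0 lower, with a median of 0.12. These were Atp5g1, a gene for the rotating c subunit (0.42, adjusted p = 0.0262), and Atp5e, for the epsilon subunit (0.37, adjusted p = 0.0733). The Atp5e call was lost without any 1 of WT clones 28, 29 and 36 or R98S clones 13 and 35 (adjusted p up to 0.207), without the filter on low values (adjusted p = 0.127) and without the intensity trend (adjusted p = 0.124). The count of 2 was 1 without WT clone 28, 29 or 36 or R98S clone 35.

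Of 9 tested regulators of mitochondrial biogenesis 0 were called by limma, with a median of −0.03. At an unadjusted p under 0.05 there were 2, edgeR called 0 and DESeq2 called 1, and limma called 1 without R98S clone 13.

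**Figure D5:**
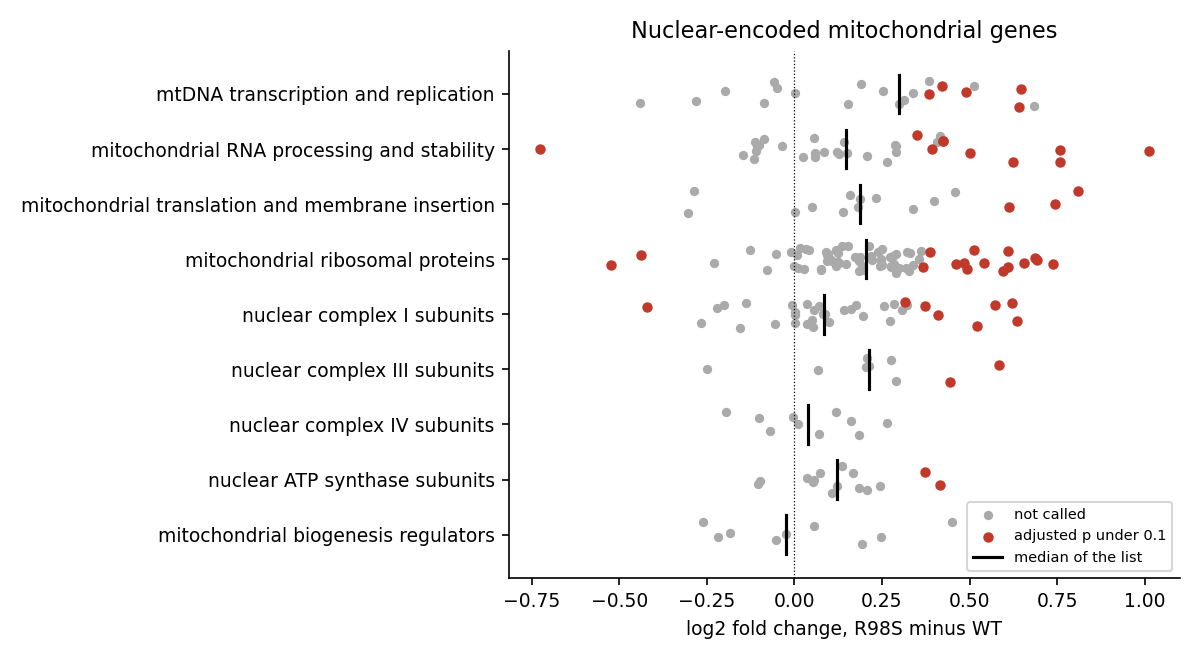
Log2 difference (R98S minus WT) of each tested nuclear gene, 1 row per list, with red points for an adjusted p under 0.1 in limma, grey points for the others and a black line at the median of the list. The medians run from −0.03 (biogenesis regulators) to 0.30 (transcription and replication of mitochondrial DNA), and complex IV and the biogenesis regulators have no red point.

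Genes elsewhere in the genome with the most similar course over the 6 libraries were ranked by Pearson's r between log2(normalized count + 1) and the log2 summed count of the 10 mRNAs, among 9494 genes. The highest were Gm8116 (r = 0.998), Ints3 (r = 0.994), Akap8 (r = 0.992), Uqcc2 (r = 0.990) and Mtmr4 (r = 0.989). With 6 libraries that share their scaling, and so many genes ranked, values near 1 are a description and nothing more. Ints3 had 1916, 2041 and 1959 normalized counts in WT against 2642, 2035 and 2341 in R98S, so that clone 13 lay within WT as it did for the summed mRNAs. The log2 differences of these 5 genes were 0.24 to 0.32.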

How the data were processed

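The deposited table gives a signal per gene symbol, namely read counts that the authors divided by DESeq2 size factors. According to the study's methods and the submitters' processing notes, reads matching ribosomal or transfer RNA were removed with Bowtie2, the others were aligned to GRCm38/mm10 with TopHat, alignments with a mapping quality of at least 10 were kept with SAMtools and reads were counted with HTSeq. Settings and annotation of the counting are not given in the sources used here. In all libraries 100% of the values were whole multiples of 1 step (0.925 to 1.07; tolerance 0.001 reads), from which reads were recovered; the step of WT clone 36, 1.00, is too close to 1 to prove it. All columns matched a sample (0 without one).

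Differences were tested two-sided with limma (version 3.58.1, R 4.3.3, intensity trend) on log2(normalized count + 1) for genes with a mean of at least 10, with Benjamini-Hochberg adjustment over all 11550 genes and a threshold of 0.1; the code was tested on simulated data. On recovered reads edgeR (4.0.16, quasi-likelihood, TMM) and DESeq2 (1.42.0, Wald) were alternatives. Adjusted p-values without a tool are from limma, and they measure the spread between 3 clones per group. Depth was alike in all libraries, so the spread between clones set the precision; intervals and floors (3 reads, 2.78 to 3.22 normalized counts) cover counting error only.

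Each mitochondrial gene was cut into all windows of 50 bases and compared, on both strands, with the other transcripts of GENCODE M21 (GRCm38); sequence outside annotated transcripts was not used here. Named genes are the 10 mRNAs, the other mitochondrial coding and ribosomal RNA genes, Rpl10, Polrmt, Tfam, Tfb2m, Lrpprc and Slirp, up to 4 called genes per direction and list by adjusted p, and the 5 genes most like the summed mRNAs (mean of at least 100). The transfer RNAs and Gm10222 and Gm13340 were named after their values were seen. Members and lists were chosen with earlier results of these data known. Of the lymphoid markers, 1 is not reported here.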

Additional observations from a re-analysis of the deposited data

How the results depend on the processing

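No paired analysis was possible because no clone number occurs in both groups. The number of genes called, 2755 of 11550, was 1327 to 3219 with 1 clone left out and 1722 at an adjusted p under 0.05. Over the leave-one-out fits the calls numbered 1 to 6 for transcription and replication of mitochondrial DNA, 3 to 14 for RNA processing, 3 to 5 for translation, 8 to 20 for mitochondrial ribosomal proteins, 4 to 8 for complex I, 1 to 3 for complex III, 0 to 1 for complex IV, 1 to 2 for ATP synthase, 0 to 1 for biogenesis regulators and 1 to 2 for the mitochondrial transcripts outside the 10 mRNAs, transfer RNAs included (mt-Atp8, joined by mt-Te without R98S clone 13). Without a filter on low values the calls were 3 for transcription and replication, 6 for RNA processing and 1 for ATP synthase, and at an adjusted p under 0.05 they were 2, 5 and 1. ATP synthase also had 1 without the intensity trend. DESeq2 called 4 for complex III and 1 for biogenesis regulators. The log2 differences with 1 clone left out were 0.28 to 0.66 for mt-Nd1, 0.81 to 1.55 for mt-Nd2, 0.81 to 1.33 for mt-Nd4, 0.68 to 1.27 for mt-Nd5, 0.47 to 0.98 for mt-Nd6, 0.61 to 0.87 for mt-Cytb, −0.29 to −0.09 for mt-Co1, 0.71 to 1.42 for mt-Co2, 0.06 to 0.52 for mt-Co3 and −0.29 to 0.72 for mt-Atp6, and the difference in share of reads was 0.362 to 0.842 percentage points. All 120 such comparisons of the 10 mRNAs over the alternatives moved by less than the spread between clones. With 1 clone left out this had to be so, since dropping 1 of 3 clones cannot move a difference by more than this spread. For those fits it is therefore no sign of stability. With windows of 100 bases the shared part was 3.20% for mt-Nd2, 30.8% for mt-Co1 and 0% for mt-Nd5. Counted per 1000 unshared windows of 50 bases, the levels of mt-Co1 and mt-Nd4 became 190302 and 46364. These levels rest on 731 unshared windows for mt-Co1 and 502 for mt-Nd4. With windows of 100 bases there were 1000 and 502, so the level of mt-Co1 on this scale depends on the window. Of 559 comparisons of single named genes, 517 kept their direction and side of the threshold, 36 lost the call, 1 gained it and 5 turned direction, all of them differences near 0 and not called. Rpl10 turned to 0.01, 0.08 and 0.13 on omission of WT clone 28, WT clone 29 and R98S clone 13 (lowest −0.29), Lrpprc ran from −0.016 to 0.36 and Slirp from −0.006 to 0.29. The cause was not tested. Rescaling shifted the median of all genes by at most 0.04 on the log2 scale.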
